A study of Mus musculus with 6 samples.

Results

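The heavy, kappa and lambda chains of regenerated B cells were compared within a single iB-μMT mouse. All rows of its 3 libraries were used, 1 per chain, of 6 libraries in the series. The other 3 came from a C57BL/6 (B6) mouse and give the level of each measure in natural B cells. iB cells were obtained from embryonic stem cells that carried a GFP label at Hipp11 and a doxycycline-inducible cassette of Runx1, Hoxa9 and Lhx2 at Rosa26. Hematopoietic progenitors induced from these stem cells (5000000 per mouse) were given to an irradiated (5 Gy) μMT recipient, a strain that makes no mature B cells of its own because the membrane form of its μ chain is disrupted. Recipients in the study were 8 to 10 weeks old and drank water with doxycycline at 1 mg/mL, so the factors stayed inducible in the donor-derived cells. The B6 mouse was a control for which no treatment is described, and its age is not given in the sources used here. From each spleen, 100000 naïve follicular (FO) B cells were sorted by surface markers that included IgD, IgM, CD23 and CD21, in the iB-μMT mouse 4 weeks after transplantation, by a gate that did not include GFP. Because each chain of each mouse is 1 library, the differences below have no replicate check and no test. The intervals given are exact (Clopper-Pearson) 95% intervals over clonotypes or junctions and cover counting error only.

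A B cell assembles its heavy chain gene first, by joining a D segment to a J segment and then a V segment to that DJ, and afterwards joins V to J directly in a kappa or lambda gene. At each join, nucleases trim the ends of the segments, opened hairpins can leave short palindromic (P) nucleotides, and the polymerase TdT can insert nucleotides without a template, which are rich in G and C. TdT is known to be most active at the heavy chain stage, and its activity is low when light chains are rearranged. The joined region is the core of CDR3, the loop of each chain that varies most. A clonotype here is a distinct CDR3 nucleotide sequence with its V and J genes.

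The heavy chain locus lies on mouse chromosome 12, the kappa locus on chromosome 6 and the lambda locus on chromosome 16 (GRCm38.p6, RefSeq annotation). Their constant regions are IGHM at chr12:113418826-113422730, IGKC at chr6:70726435-70726754, and IGLC1, IGLC2 and IGLC3, of which IGLC1 is at chr16:19061752-19062071. The labels of the chains were compared with these constant regions. IGHM was the constant region of 7644 of 7794 heavy chain clonotypes in the iB-μMT mouse, 3 had IGHG1 and 3 had IGHG2C, and the other 144 had none. No clonotype was assigned to IGHD, although the sort gate required IgD. Gene-specific primers may leave some constant regions out of a library, so these counts do not check the cell type. IGKC was assigned to 1805 of 1818 kappa clonotypes. In the lambda library each J gene came with its own constant region, IGLJ1 with IGLC1 in 24 clonotypes, IGLJ2 with IGLC2 in 18 and IGLJ3 with IGLC3 in 9.

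The 3 chains are shown first by the CDR3 of their largest clonotype and, beside it, the most read productive clonotype with inserted nucleotides, in the heavy chain at both junctions, since these show what a junction of each chain looks like. Sequences run 5′ to 3′ from the conserved cysteine codon, and capitals mark the nucleotides counted as inserted.
heavy, IGHV3-6 with IGHD2-3 and IGHJ2: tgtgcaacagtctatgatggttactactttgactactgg
heavy, IGHV1-81 with IGHD2-4 and IGHJ4: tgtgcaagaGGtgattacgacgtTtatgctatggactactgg
kappa, IGKV6-15 with IGKJ5: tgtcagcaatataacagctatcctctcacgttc
kappa, IGKV10-96 with IGKJ1: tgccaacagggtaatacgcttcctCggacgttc
lambda, IGLV1 with IGLJ1: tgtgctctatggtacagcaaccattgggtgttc
lambda, IGLV2 with IGLJ2: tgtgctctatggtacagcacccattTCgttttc

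The largest clonotype had no inserted nucleotide in any of the 3 chains. The heavy chain one had 5930 reads, 0.652% of the library, and joined 10 nucleotides of V to 11 of D and 18 of J, the last including 1 P nucleotide. It was not found in the B6 mouse. The next heavy chain clonotype held 0.102% of the reads. The largest kappa clonotype had 11430 reads (2.03%), and 2 of its bases fitted both IGKV6-15 and IGKJ5, so the join cannot be placed within them. The same kappa sequence held 2.49% of the reads in the B6 mouse. The largest lambda clonotype had 77900 reads (28.9%), with 1 base that fitted both genes, and held 36.1% of the lambda reads of the B6 mouse. The heavy chain example with insertions at both junctions had 2 inserted nucleotides before D and 1 after it and ranked 28 among heavy chain clonotypes with 550 reads. The kappa example had 1 inserted nucleotide, 3457 reads and rank 35, and the lambda example 2 inserted nucleotides, 258 reads and rank 25. Both light chain examples were also in the B6 mouse. The kappa one held 0.614% of the iB-μMT reads and 0.686% of the B6 reads, the lambda one 0.0957% and 0.128%. The heavy chain example was not found there. In each example V was counted as untrimmed, and whether the inserted bases after V belong to the V gene was not tested.

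The chains differed widely in clonotype number. There were 7794 clonotypes in the heavy chain library, 1818 in the kappa library and 51 in the lambda library, so that the heavy chain had 4.29 times as many as kappa and 153 times as many as lambda. The B6 mouse had 6781, 1696 and 42 clonotypes, with ratios of 4.00 and 161. The libraries were sequenced to different depths, 909806 reads for heavy, 562884 for kappa and 269712 for lambda. Reduced to the 269712 reads of the lambda library, the expected numbers were 7507, 1748 and 51.0. In draws of 10000 reads they were 4686 for heavy, 1014 for kappa and 48.8 for lambda. The order of the chains was thus the same at equal depth.

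Gene choice did not run parallel to clonotype number. The heavy chain used 97 V genes and kappa 99, whereas lambda used 3. Weighted by evenness over clonotypes (the exponential of the Shannon entropy), this was an effective number of 49.0 V genes in the heavy chain, 78.2 in kappa and 2.72 in lambda. The 10 commonest V genes held 45.7% of heavy chain clonotypes and 22.3% of kappa clonotypes. Within the heavy chain, IGHV5-4 alone had 1008 clonotypes (12.9%), followed by IGHV5-6 with 535 and IGHV9-3 with 450. In kappa the first 3 genes were close to each other, IGKV17-121 with 47 clonotypes, IGKV19-93 with 44 and IGKV6-15 with 42. When V genes were weighted by reads, the effective numbers came to 53.3 in the heavy chain and 50.2 in kappa, so the order of these chains turned with the weighting. J genes were used about evenly in the heavy chain (effective number 3.82 of 4 genes) and in kappa (3.89 of 4), and lambda had 2.80 of 3.

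The number of V-J pairs was nearly equal in the heavy chain (355) and kappa (358), and lambda had 7. Among the lambda pairs, IGLV1 with IGLJ1 had 20 clonotypes and 56.9% of the reads, IGLV2 with IGLJ2 had 8 and 22.1%, and IGLV3 with IGLJ2 had 10 and 13.1%. The other 4 lambda pairs had 1 to 8 clonotypes each. Per V-J pair there were thus many more CDR3 sequences in the heavy chain than in either light chain. Different nucleotide sequences coding for the same CDR3 were also rarer in the heavy chain, with 1.01 nucleotide clonotypes per amino acid clonotype of the same V and J genes, against 1.15 in kappa and 1.11 in lambda.

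Reads were spread evenly over heavy chain clonotypes and unevenly over those of the light chains. The effective number of clonotypes was 5616 for heavy, 413 for kappa and 9.004 for lambda, which is 72.1%, 22.7% and 17.7% of the clonotypes found. The B6 mouse had 72.5%, 20.1% and 19.9%. In the iB-μMT mouse, 50% of the reads were held by 1795 heavy chain clonotypes, by 80 kappa clonotypes and by 3 lambda clonotypes. The 10 largest clonotypes held 1.39% of heavy chain reads, 12.7% of kappa reads and 93.1% of lambda reads. No heavy chain clonotype reached 1% of its library, while 9 kappa clonotypes did, with 11.7% of the reads, and 11 lambda clonotypes did, with 94.4%. The Gini coefficient, which is 0 for equal clonotypes, was 0.429 for heavy, 0.814 for kappa and 0.862 for lambda. Median reads per clonotype were 96, 42 and 225. Reads are not molecules here, since no molecular identifiers are described, and 1 large cell clone cannot be told apart from a sequence made independently in many cells or from a cell with more RNA.

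**Figure D1:**
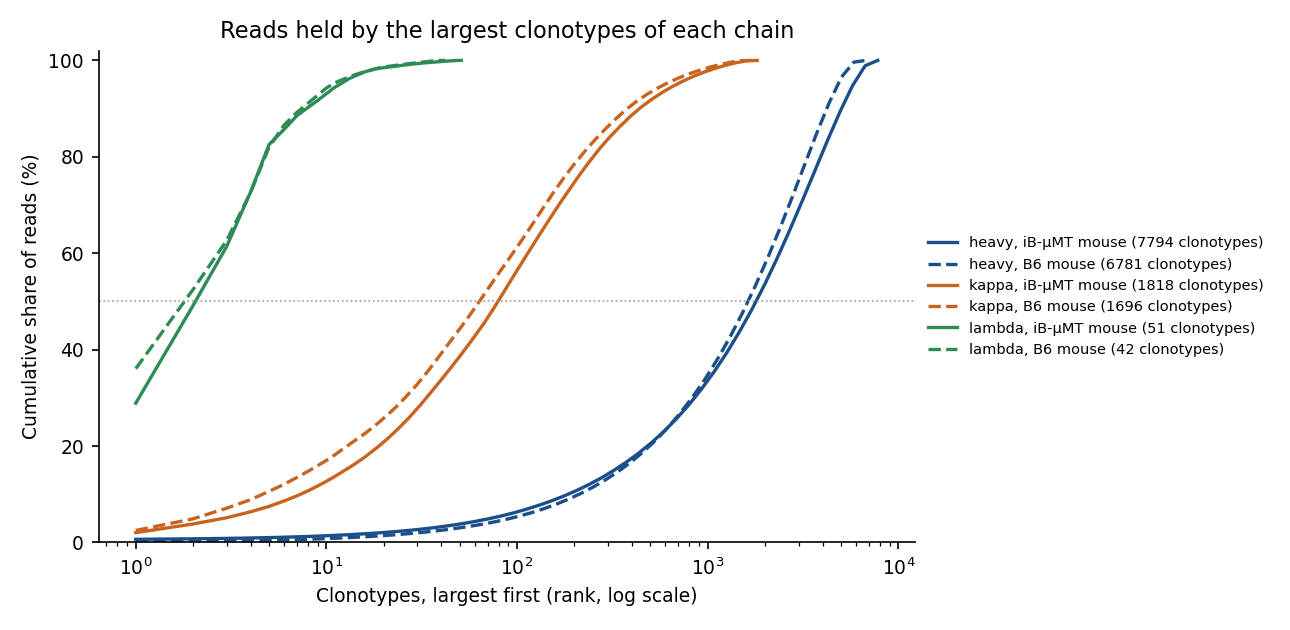
Cumulative share of reads (%, vertical axis) against clonotype rank from the largest (horizontal axis, log scale), for the heavy, kappa and lambda chains of the iB-μMT mouse (solid lines) and the B6 mouse (dashed lines); the dotted line marks 50%. In the iB-μMT mouse the lines cross 50% at 3 lambda, 80 kappa and 1795 heavy chain clonotypes.

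The light chain sequences that dominated were largely the same in both mice. Of the kappa clonotypes of the iB-μMT mouse, 894 of 1818 (49.2%, interval 46.9 to 51.5) were also in the B6 mouse, and they held 91.7% of its kappa reads. For lambda it was 28 of 51 (54.9%, 40.3 to 68.9) and 97.8% of the reads. For the heavy chain it was 34 of 7794 (0.436%, 0.302 to 0.609) and 0.234% of the reads. Kappa clonotypes without an inserted nucleotide were shared in 808 of 1485 cases (54.4%, 51.8 to 56.97), those with 1 to 3 inserted nucleotides in 70 of 264 (26.5%, 21.3 to 32.3) and those with 4 or more in 16 of 69 (23.2%, 13.9 to 34.9). In the heavy chain, 1 of 595 clonotypes without an inserted nucleotide was shared (0.168%, 0.0043 to 0.933). With 1 to 3 inserted nucleotides it was 10 of 2419 (0.413%, 0.198 to 0.759), and with 4 or more 19 of 3773 (0.504%, 0.303 to 0.785). Of those without a D hit, 4 of 1007 were shared. The heavy chain share thus did not fall with insertions as in kappa, and its intervals overlapped. Without the clonotypes found in both mice, 7760 heavy, 924 kappa and 23 lambda clonotypes were left.

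CDR3 was longest on average in the heavy chain, and its length was least spread in kappa. CDR3 length is counted in amino acids, including the conserved residue at each end. Mean lengths were 13.6 ± 2.37 (SD over 7794 clonotypes) in the heavy chain, 11.01 ± 0.980 (SD over 1818) in kappa and 11.8 ± 2.24 (SD over 51) in lambda. The B6 mouse had 13.95 ± 2.71, 10.95 ± 0.985 and 11.98 ± 2.01 with 6781, 1696 and 42 clonotypes. Heavy chain lengths ran from 4 to 23 amino acids, kappa from 6 to 14 and lambda from 8 to 17. The most common length was 13 amino acids in the heavy chain, with 17.8% of clonotypes (16.98 to 18.7). It was 11 amino acids in kappa, with 47.2% (44.9 to 49.5), and also 11 in lambda, with 33.3% (20.8 to 47.9). Within 1 amino acid of the most common length lay 47.6% of heavy, 89.0% of kappa and 66.7% of lambda clonotypes.

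The SD of lambda was close to that of the heavy chain, but the lengths were arranged differently. The heavy chain filled lengths from 6 to 23 amino acids without a gap around a single peak. Lambda had 42 clonotypes from 8 to 13 amino acids, none at 14, and 9 from 15 to 17. The lambda V genes differed in length. IGLV3 clonotypes had a mean of 15.3 ± 1.48 (SD over 12 clonotypes), against 10.6 ± 1.096 (28 clonotypes) for IGLV1 and 11 ± 0.775 (11 clonotypes) for IGLV2. Differences between V genes made up 73.9% of the length variance in lambda, 9.88% in kappa and 3.75% in the heavy chain. Within V genes the SD was 2.32 in the heavy chain, 0.930 in kappa and 1.14 in lambda, so the heavy chain was the most variable once the V gene was held fixed. Weighted by reads, the SD was 2.33, 0.425 and 1.37, and CDR3 of the most common length held 19.2% of heavy chain reads, 85.8% of kappa reads and 82.2% of lambda reads.

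**Figure D2:**
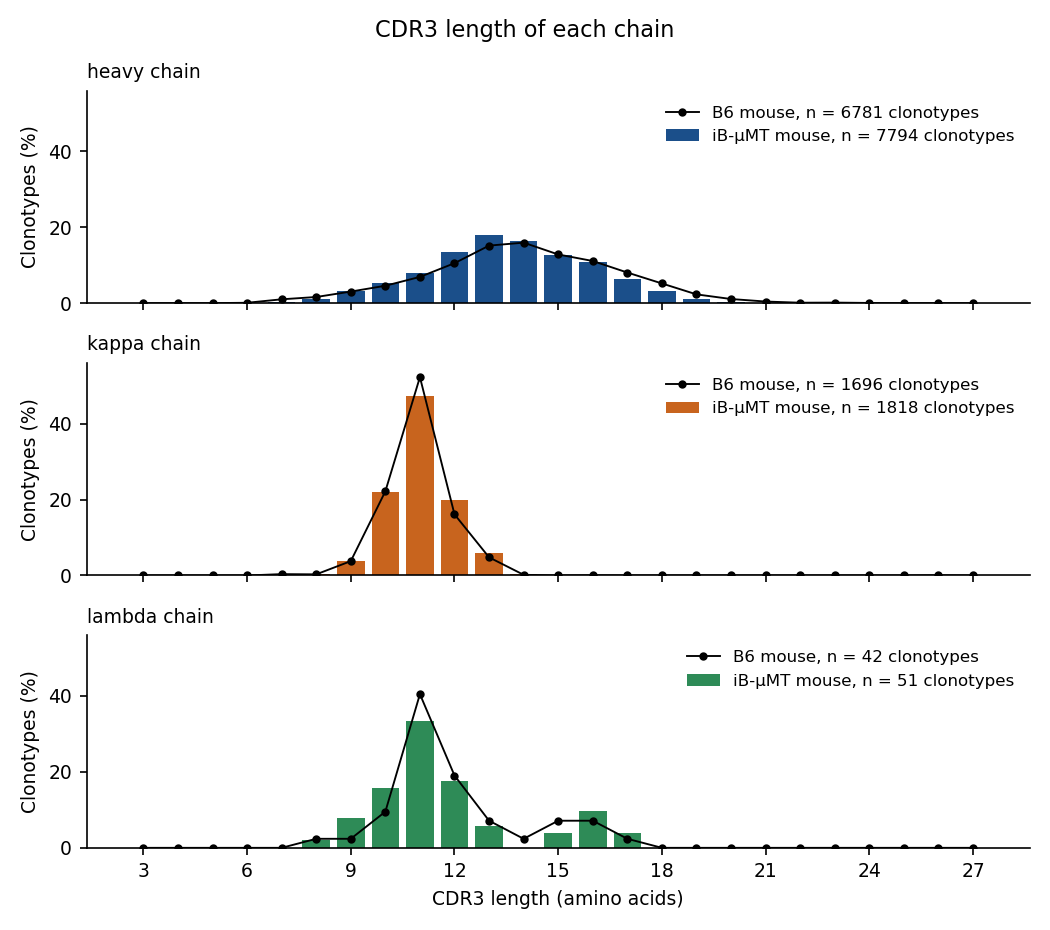
Share of clonotypes (%, vertical axis) at each CDR3 length in amino acids (horizontal axis), for the heavy, kappa and lambda chains; bars are the iB-μMT mouse and black points joined by lines the B6 mouse. The heavy chain peaks at 13 amino acids with 17.8%, kappa at 11 with 47.2%, and lambda has a second group of clonotypes from 15 to 17.

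The parts of CDR3 that carried the length and its spread were not the same. In the heavy chain, over the 6787 clonotypes with a D hit, V gave on average 8.94 nucleotides of CDR3, the V-D insertion 3.12, D 10.5, the D-J insertion 1.20 and J 18.0. In kappa, V gave 23.3 nucleotides and J 9.80, and in lambda V gave 26.7 and J 10.1. The distance from the end of V to the start of J in the light chains averaged -0.110 nucleotides in kappa and -1.45 in lambda, since bases that fit both genes are counted in both. The share of the length variance was obtained from the covariance of each part with the length. For the heavy chain it was 41.6% for J, 34.4% for D, 14.8% for the V-D insertion, 5.71% for V and 3.46% for the D-J insertion. In kappa it was 48.7% for V, 39.7% for J and 11.6% for the distance between them. In lambda, V had 81.9%. In the heavy chain, inserted nucleotides thus held less of the length spread than the D and J parts. These parts are the lengths left after trimming, and J includes P nucleotides. The V to J distance of the light chains mixes inserted with shared bases, so its share does not measure insertions alone.

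**Figure D3:**
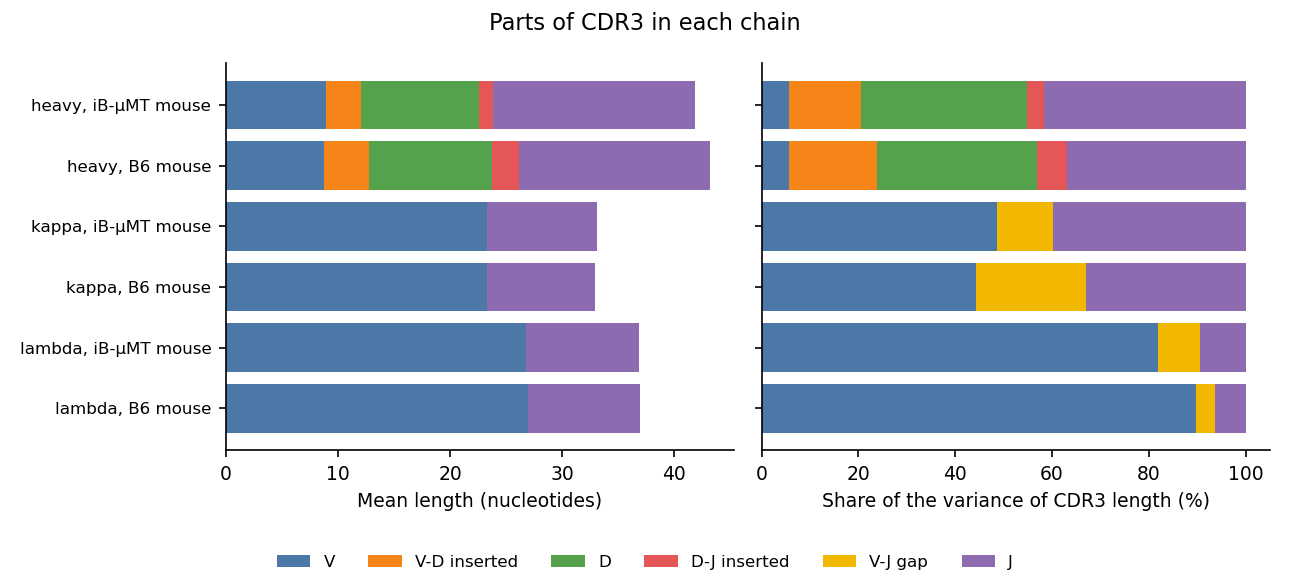
Parts of CDR3 by chain and mouse: mean length in nucleotides (left) and share of the variance of CDR3 length in % (right), each colour 1 part. The negative V-J distance of kappa and lambda is not drawn on the left. In the heavy chain of the iB-μMT mouse D and J hold 34.4% and 41.6% of the variance, and V holds 81.9% in lambda.

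Inserted nucleotides, as counted from the deposited alignment ends, were more frequent in the heavy chain than in either light chain, but its junctions were unlike each other. At the V-D junction a mean of 3.12 ± 2.51 nucleotides (SD over 6787 junctions) was inserted, and 16.5% of junctions (15.6 to 17.4) had none. At the D-J junction the mean was 1.20 ± 1.82, and 54.1% (52.9 to 55.3) had none. In kappa the mean was 0.550 ± 2.00 (SD over 1818 junctions), with none in 81.7% (79.8 to 83.4). In lambda the mean was 0.392 ± 0.802 (SD over 51 junctions), with none in 39 of 51 (76.5%, 62.5 to 87.2). The kappa share without insertion lay within the lambda interval, and the D-J share of the heavy chain lay between those of its V-D junction and of the light chains. Pooled over both heavy chain junctions, 2.16 nucleotides were inserted per junction, 3.93 times the kappa mean and 5.51 times the lambda mean.

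In the B6 mouse the share without insertion had the same order over the junctions, with a narrower gap between both heavy chain junctions, while the mean was higher in lambda (0.643) than in kappa (0.590). There the V-D junction had a mean of 4.01 inserted nucleotides and none in 11.3%, and the D-J junction 2.36 and none in 28.8%. Its light chains had no insertion in 80.5% of kappa and 78.6% of lambda junctions. The share of D-J junctions without insertion in B6 had an interval of 27.7 to 29.99, apart from that of the iB-μMT mouse, whereas the kappa interval of 78.5 to 82.3 overlapped. With 1 library per chain and mouse, these intervals hold no spread between mice.

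**Figure D4:**
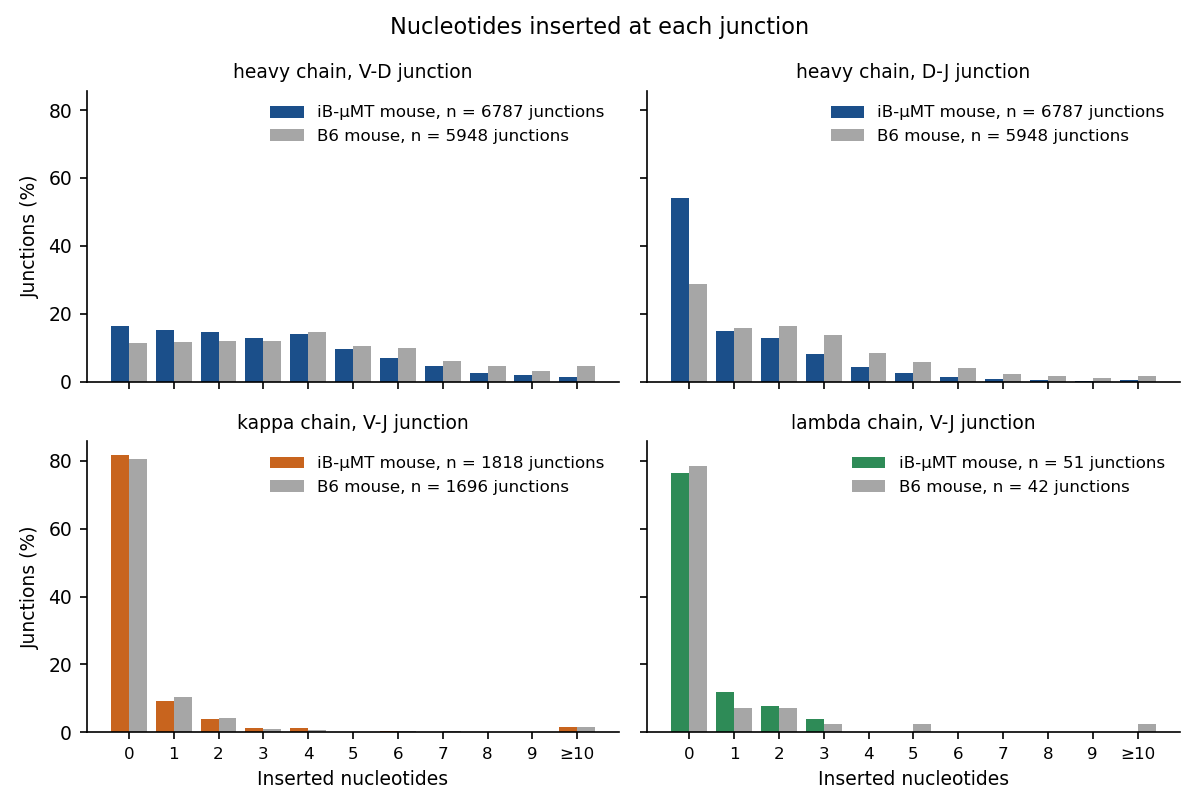
Share of junctions (%, vertical axis) by number of inserted nucleotides (horizontal axis, 10 or more in the last bin), for both heavy chain junctions and the kappa and lambda V-J junctions; coloured bars are the iB-μMT mouse and grey bars the B6 mouse. Junctions without insertion make up 16.5% at V-D, 54.1% at D-J, 81.7% in kappa and 76.5% in lambda of the iB-μMT mouse.

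Where nucleotides were inserted, there were 3.74 on average at V-D, 2.61 at D-J, 3 in kappa and 1.67 in lambda. The kappa value was 2.42, below that of D-J, without a pair of V genes described below. At least 3 were inserted in 53.6% of V-D junctions, 18.4% of D-J junctions, 5.06% of kappa and 3.92% of lambda junctions. Of the heavy chain clonotypes, 2594 of 6787 (38.2%, 37.1 to 39.4) had insertions at both junctions, 3598 (53.0%) at 1 of them and 595 (8.77%, 8.10 to 9.46) at neither. The B6 mouse had 62.7%, 34.5% and 2.79%. Light chain clonotypes with insertions had few reads. Weighted by reads, 95.6% of kappa and 99.4% of lambda junctions had no insertion, and the mean was 0.0948 and 0.00916 nucleotides, against 1.97 in the heavy chain, where V-D had none in 19.9% and D-J in 56.5%.

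The inserted bases differed in composition. Of 21170 nucleotides inserted at V-D, 68.1% (67.5 to 68.7) were G or C, and of 8149 at D-J, 66.5% (65.45 to 67.5). Of 999 in kappa, 47.9% (44.8 to 51.1) were G or C, near the 47.0% of whole kappa CDR3 sequences. Lambda had 20 inserted nucleotides, 10 of them G or C, which leaves an interval of 27.2 to 72.8%. G was the commonest inserted base at both heavy chain junctions (46.9% and 40.5%) and made up 14.01% in kappa, where C was commonest (33.9%).

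Many of the long kappa insertions lay in a pair of V genes, which were singled out after their values were seen. Of 44 kappa clonotypes with 6 or more inserted nucleotides, 11 were of IGKV14-126 (chr6:67896177-67896642, a V segment pseudogene in the RefSeq annotation) and 9 of IGKV4-57-1 (chr6:69544368-69544892). With 44 of 1818 clonotypes, these genes held 277 of the 999 inserted nucleotides (27.7%). The other 24 clonotypes with long insertions had a median of 1 read, against 16.5 in the pair. They held 276 of the 722 inserted nucleotides outside the pair, so values without the pair still rest in part on them. The junctions of the pair are shown by the most read clonotype of IGKV14-126 with a long insertion, the most read of that gene without one, and the most read of IGKV4-57-1.
IGKV14-126 with IGKJ2, 14 inserted: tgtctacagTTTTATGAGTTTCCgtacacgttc
IGKV14-126 with IGKJ2, none inserted: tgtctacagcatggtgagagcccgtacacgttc
IGKV4-57-1 with IGKJ5, 5 inserted: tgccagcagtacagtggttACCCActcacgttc

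The first of these had 216 reads and 17 nucleotides counted as trimmed from V. Its first 23 nucleotides, inserted bases included, opened 11 of the 21 IGKV14-126 clonotypes, joined to 4 different J genes, and 9 of 22 in the B6 mouse. In IGKV4-57-1, V was counted as untrimmed in 22 of 23 clonotypes, with a mean of 4.70 inserted nucleotides, and 17 of the 23 opened with the same 23 nucleotides, 15 of 20 in the B6 mouse. Whether these repeated bases were inserted or belong to a germline sequence absent from the reference was not tested. Other kappa V genes were not checked for repeated bases and remain in the values without the pair. One of them, IGKV10-96, had no insertion in 53.1% of clonotypes, and in 61.1% in the B6 mouse. Without IGKV14-126 and IGKV4-57-1, the kappa mean was 0.407 ± 1.55 (SD over 1774 junctions). Then 83.2% (81.4 to 84.9) had no insertion, and 50.4% (46.7 to 54.1) of inserted bases were G or C. The mean then stood at 1.04 times that of lambda in place of 1.40 times. Where kappa nucleotides were inserted, their mean number was then 2.42 in place of 3, below the 2.61 of the D-J junction.

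In many light chain clonotypes the ends of V and J had bases in common, so that no nucleotide lay between the genes and the point of the join was uncertain. This held for 624 of 1818 kappa clonotypes (34.3%, 32.1 to 36.6) and 29 of 51 lambda clonotypes (56.9%, 42.2 to 70.7). The B6 mouse had 36.4% and 59.5%. Among clonotypes with no P nucleotides at J, 19.98% in kappa and 44.8% in lambda had such an overlap. No such overlap occurs in heavy chain clonotypes with a D hit, and 1007 heavy chain clonotypes (12.9%) without a D hit were left out of the junction values.

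V genes were counted as trimmed less in the heavy chain than in the light chains. No germline sequences were at hand, so trimming and insertion in every chain rest on the deposited alignment ends. A mean of 0.589 ± 1.22 nucleotides (SD over 7794 clonotypes) was lost from the 3′ end of V in the heavy chain, and 73.2% of clonotypes (72.3 to 74.2) had lost none. In kappa the mean was 2.63 ± 2.83, with 28.6% untrimmed (26.5 to 30.7), and in lambda 2.65 ± 2.87, with 29.4% untrimmed (17.5 to 43.8). The B6 mouse had means of 0.693, 2.65 and 2.69. J genes went the other way, with 2.27 ± 2.71 nucleotides lost from the 5′ end in the heavy chain, 1.24 ± 1.496 in kappa and 1.25 ± 1.72 in lambda. J was untrimmed in 42.3% of heavy (41.2 to 43.4), 45.7% of kappa (43.4 to 48.0) and 51.0% of lambda clonotypes (36.6 to 65.2). Heavy chain J genes thus lost more than V genes, and kappa V genes more than J genes, as did lambda V genes unless shared bases were counted as lost from J.

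These values depend on where shared bases are placed. With the bases that fit both genes counted as lost from V, the mean V trimming was 3.29 nucleotides in kappa and 4.49 in lambda. Counted as lost from J, the mean J trimming was 1.90 in kappa and 3.10 in lambda, the latter above the 2.27 of the heavy chain and above the 2.65 lost from lambda V. P nucleotides at J were counted in 30.4% of heavy (29.4 to 31.5), 33.7% of kappa (31.5 to 35.9) and 43.1% of lambda clonotypes (29.3 to 57.8). Stretches of over 4 P nucleotides at J, longer than usual hairpin openings leave, made up 10.3%, 4.46% and 9.80% of clonotypes. P nucleotides at V were listed in no clonotype, so any there would count as inserted.

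**Figure D5:**
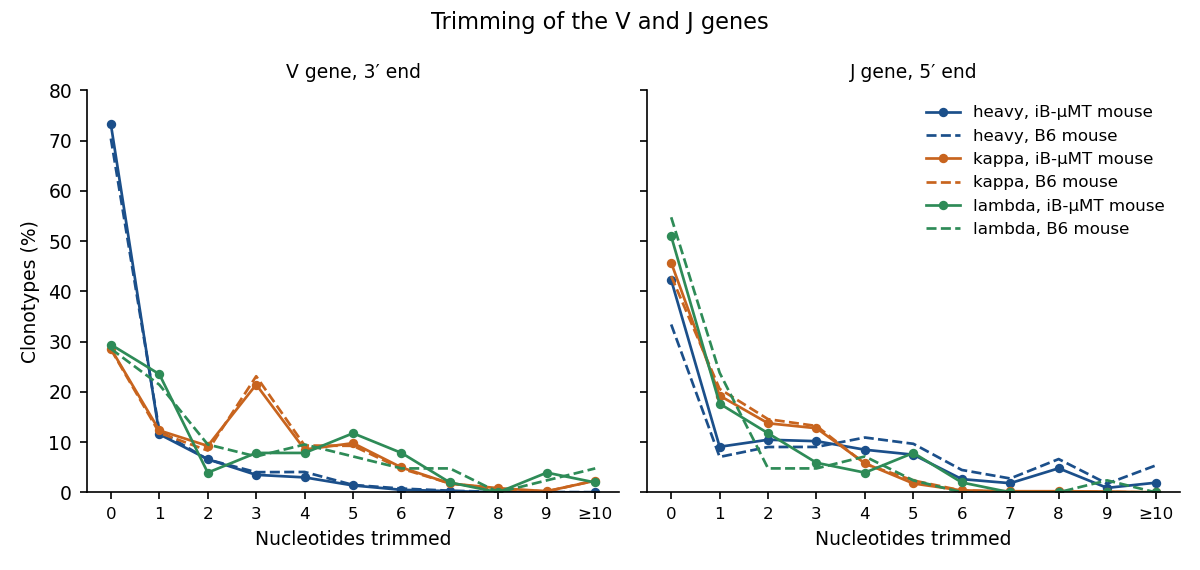
Share of clonotypes (%, vertical axis) by nucleotides trimmed (horizontal axis, 10 or more in the last bin) from the 3′ end of V (left) and the 5′ end of J (right), for the 3 chains of the iB-μMT mouse (solid lines with points) and the B6 mouse (dashed lines). V is untrimmed in 73.2% of heavy, 28.6% of kappa and 29.4% of lambda clonotypes of the iB-μMT mouse.

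The D segment, present in the heavy chain only, was trimmed at both ends. It lost 3.60 ± 3.11 nucleotides at its 5′ end and 4.13 ± 5.86 at its 3′ end (SD over 6787 clonotypes), and was untrimmed in 21.9% and 32.3%. In the B6 mouse the means were 3.96 and 5.07. The 4 commonest D genes, named after their counts were seen, were IGHD1-1 with 1509 clonotypes, IGHD4-1 with 1272, IGHD2-3 with 1096 and IGHD2-4 with 936. IGHD4-1 left 8.02 nucleotides of D and a mean CDR3 of 12.5 ± 1.87 amino acids, and IGHD1-1 left 13.3 nucleotides and 15.3 ± 2.18 amino acids (SD over clonotypes). The D-J junction had no insertion in 41.0% of IGHD4-1 and 60.9% of IGHD1-1 clonotypes. Losses of 25 or more nucleotides at the 3′ end were listed for 118 D alignments (1.74%), up to 53, longer than a mouse D segment, and these are doubtful. A fixed cut can miss losses too long for a shorter D gene. Up to 17 were listed at the 3′ end of IGHD4-1, and up to 28 at the 5′ end over all D genes. The mean D losses include all of these.

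Trimming varied between V genes of 1 chain. Among the 71 heavy chain V genes with at least 20 clonotypes, the mean lost from V ran from 0.0759 nucleotides in IGHV5-9-1 to 2.09 in IGHV7-3, with a median of 0.53. The most used gene, IGHV5-4, lost 0.127 ± 0.553 (SD over 1008 clonotypes) and gained 3.88 nucleotides at V-D, above the 3.12 of the whole chain. IGHV5-4 was counted as untrimmed in 91.9% of clonotypes, and in the B6 mouse it lost 0.128 and gained 4.93. Whether some of these inserted bases belong to a V end absent from the reference was not tested. Among 42 kappa V genes, the median was 2.65, the lowest 0.0870 in IGKV4-57-1 and the highest 9.86 in IGKV14-126, the pair described above. The commonest kappa genes lost 2.38 (IGKV17-121), 3.5 (IGKV19-93) and 2.40 nucleotides (IGKV6-15). In lambda, IGLV1 lost 3.43 ± 3.29 (SD over 28 clonotypes), IGLV2 0.818 ± 0.982 (11) and IGLV3 2.50 ± 2.24 (12). Inserted nucleotides at the V junction had a median over genes of 3.05 in the heavy chain, with a lowest value of 1.15 in IGHV7-1, and 0.44 in kappa, with a lowest value of 0 in IGKV1-88.

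J genes differed within each chain as well. Among heavy chain J genes, IGHJ1 (1109 clonotypes), the J gene nearest to the D segments, lost 1.45 ± 2.00 nucleotides and had no D-J insertion in 64.3% of junctions (61.2 to 67.4). IGHJ2 (2594 clonotypes) lost 2.27 ± 3.08 with none in 53.7%, IGHJ3 (1779) lost 2.29 ± 2.55 with none in 49.8%, and IGHJ4 (2312) lost 2.65 ± 2.58 with none in 53.0%. In the B6 mouse the shares without D-J insertion were 41.1%, 29.6%, 27.5% and 21.5%, so IGHJ1 was highest in both. CDR3 was longest with IGHJ4 (14.7 ± 2.16 amino acids) and IGHJ1 (14.6 ± 2.03) and shortest with IGHJ2 (12.6 ± 2.23).

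In kappa, IGKJ1 (559 clonotypes) lost 1.503 ± 1.51 nucleotides, IGKJ2 (517) 1.29 ± 1.48, IGKJ4 (292) 0.750 ± 1.45 and IGKJ5 (450) 1.17 ± 1.45. IGKJ4 was untrimmed in 69.9% of clonotypes, against 38.7% to 45.6% for the others. The share without insertion ranged from 78.2% with IGKJ5 (74.1 to 82.0) to 83.5% with IGKJ1 (80.2 to 86.5), intervals that overlapped. In lambda, IGLJ1 (24 clonotypes) lost 1.08 ± 1.61, IGLJ2 (18) 0.944 ± 1.35 and IGLJ3 (9) 2.33 ± 2.35, and these clonotypes were too few to order.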

How the data were processed

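BCR libraries of the heavy, kappa and lambda chains were made by 5′ RACE from total RNA of sorted naïve FO B cells, sequenced on an Illumina MiSeq, and assembled into clonotypes by the authors with MiXCR (version 3.0.13). The submitters' processing notes name mm10 and bcl2fastq. As deposited, each clonotype has a count of reads, not normalized, its fraction of the reads of its library, which was used only to check the counts, and a score, the lowest sequencing quality in CDR3, which was used as a description only. The authors also gave the CDR3 sequence, the gene hits and the positions where V, D and J align, from which insertions, trimming and P nucleotides were read.

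The depth was 269712 to 1383617 reads per library, and 3 reads were 0.00033% of the iB-μMT heavy chain, 0.000533% of kappa and 0.001112% of lambda reads. Clonotype numbers skip identifiers (1183 in heavy, 810 in kappa and 568 in lambda of the iB-μMT mouse), and those clonotypes were not analysed here. Every CDR3 listed was in frame. The best hit of each gene was used, and each clonotype was counted once unless weighted by reads. Insertions of the heavy chain were taken over clonotypes with a D hit, and a negative V-J distance counted as 0 inserted nucleotides. With 1 library per chain and mouse, no test was run. A ratio between chains was regarded as unchanged by an alternative if it moved by less than 1.5 times and did not cross 1. Positions came from the RefSeq table of GRCm38.p6, where 30 of 30 names looked up were found.

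The chains, measures and lists were chosen with earlier results of these data known. Named genes were every J gene, every lambda V gene, and the 3 heavy and 3 kappa V genes with the most clonotypes. The V genes at the extremes of a range, the D genes and the pair of kappa V genes with repeated insertions were added after their values were seen. Python 3.11.15, NumPy 2.4.6, SciPy 1.17.1, pandas 2.3.3 and matplotlib 3.10.9 were used, and the reading of junctions was tested on simulated clonotypes.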

Additional observations from a re-analysis of the deposited data

Results flagged for a closer look

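Of 33 ratios between chains, 2 lay above 1 in either the iB-μMT or the B6 mouse and below 1 in the other, both of them kappa over lambda. Mean inserted nucleotides per junction had a ratio of 1.40 in the iB-μMT mouse (0.550 in kappa, 0.392 in lambda) and 0.917 in the B6 mouse (0.590 and 0.643). With single-read clonotypes left out, both ratios were above 1, at 1.14 and 1.41, and with at least 5 reads they were 0.967 and 1.19. Mean trimming of the J 5′ end had a ratio of 0.988 in the iB-μMT mouse (1.24 and 1.25 nucleotides) and 1.17 in the B6 mouse (1.28 and 1.095). That of the iB-μMT mouse was 1.004 with at least 5 reads and 1.05 with near-identical clonotypes merged, and so above 1 like that of the B6 mouse (1.39 and 1.32). These differences were not tested. The lambda values rest on 51 and 42 clonotypes, and the SD of lambda insertions was 0.802 and 1.79 nucleotides.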

How the results depend on the processing

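No paired analysis was possible because the labels give no replicate numbers and each chain of each mouse is 1 library, so no library could be left out either. Over 33 ratios between chains and 15 alternatives, 249 of 282 recomputed ratios of the iB-μMT mouse moved by less than 1.5 times without crossing 1, 30 moved further or crossed 1 from close by, and 3 reversed. The alternatives with shared bases, long P stretches or without IGKV14-126 and IGKV4-57-1 were chosen after seeing the data, and the last, like P stretches of at most 4 nucleotides, equal read numbers, at least 2 reads, a single best V hit, at least 8 nucleotides of D and clonotypes by amino acid sequence, changed no ratio of the iB-μMT mouse in this sense. In the B6 mouse, at least 2 reads moved the ratio of inserted nucleotides, kappa over lambda, from 0.917 to 1.41.

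Weighted by reads, effective V genes, heavy over kappa, reversed to 1.06. The SD of CDR3 length was 5.48 (heavy over kappa) and 1.70 (heavy over lambda), the share at the most common length 0.224 and 0.233, inserted nucleotides 20.7 and 215, and 10.3 for kappa over lambda. Junctions without insertion were 0.961 (kappa over lambda). V trimming was 0.465 (heavy over lambda) and 1.51 (kappa over lambda), and J trimming 2.74 and 1.005.

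Without clonotypes found in both mice, clonotype number was 8.40 (heavy over kappa) and 337 (heavy over lambda), effective number 20.6 and 994, the 10 largest clonotypes 0.0492 (heavy over kappa) and 0.329 (kappa over lambda), the SD of length 0.921 (heavy over lambda), and the share at the most common length 0.572 (heavy over kappa) and 0.820 (heavy over lambda). With at least 5 reads, kappa over lambda was reversed to 0.967 for insertions and was 1.004 for J trimming. With near-identical clonotypes merged, the SD of length was 0.993 (heavy over lambda) and J trimming 1.05 (kappa over lambda). With productive clonotypes only, junctions without insertion were 0.988 and J trimming 1.003, both kappa over lambda. With P nucleotides counted as inserted, insertions were 3.58 (heavy over lambda). Shared bases given to J made V trimming 0.131 (heavy over lambda). Given to V, they made J trimming 1.196 (heavy over kappa), 0.613 (kappa over lambda) and, reversed, 0.734 (heavy over lambda). The cause was not tested. The number of lambda clonotypes limits each ratio with lambda.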

Other observations

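A stop codon was found in 53 heavy, 16 kappa and 4 lambda clonotypes of the iB-μMT mouse, and in 150, 21 and 2 of the B6 mouse. The lowest base quality in CDR3 was under 30 in 1.81% of heavy and 3.96% of kappa clonotypes of the iB-μMT mouse, and in 3.63% and 7.25% of the B6 mouse.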
